A study of Mus musculus with 6 samples.

Results

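The genes described here are 36 replication and mitosis genes, chosen by name for their known roles. The rule uses no measured value, though results of these data were known when the genes were listed. Of the 36, the deposited gene table holds 35, out of 23770 rows, each keyed by an Ensembl mouse gene identifier. The missing one is Pcna, the sliding clamp of DNA polymerases, for which no value is reported. The samples were 3 Kdm1a knockdown (labelled Kdm1a KD) and 3 control samples of mouse acute myeloid leukaemia (AML) cells, and each was measured on 1 array. All 6 samples came from cells that carry MLL-AF9, a fusion oncoprotein, on the C57BL/6 strain background, and all were enriched for the leukaemia stem cells that can propagate the disease. Per the labels' protocols, frozen cells were thawed, exposed to virus and cultured overnight, and RNA was amplified before labelling. Age, sex, the hairpin or control construct and the time from infection to harvest were not stated in the labels or the design text. That text mentions 3 samples from 2 animals and does not say which sample came from which animal. The p-values therefore rest on the variation among samples, some of which share an animal, and animals may vary more. KDM1A is a lysine-specific histone demethylase of transcriptional repressor complexes, and the series asks what its loss does to these leukaemia cells.

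Cells that divide copy their genome in S phase and share it out in mitosis. Before S phase, CDC6 and CDT1 load the MCM2 to MCM7 helicase ring onto replication origins, and E2F transcription factors raise the genes for this step and for deoxynucleotide supply. Genes for mitosis peak later, with CDK1 and its cyclins driving entry, Aurora and Polo-like kinases building the spindle, and the checkpoint proteins BUB1 and BUBR1 holding back the anaphase-promoting complex until chromosomes are attached. Because most of these transcripts are made only in cycling cells, their level in a bulk sample rises with the share of cycling cells. Fewer cycling cells and less RNA per cycling cell cannot be told apart in such samples.

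The targeted gene itself was strongly reduced. The platform annotation gives Kdm1a under its older symbol Aof2 with 23 probe sets, short probe groups along the transcript, and the median of these on each array was taken as the gene's value. That log2 value was 6.30, 6.15 and 6.15 in knockdown samples, against 8.61, 8.94 and 8.74 in control samples. The groups lay far apart, with a difference of -2.56 (SE 0.18, 95% interval -2.97 to -2.16), which left 16.9% of the control level (limma, adjusted p = 0.00363, n = 3 each). Kdm1a ranked 1 by p among 18916 symbols treated in this way. It was lower in 22 of its 23 probe sets, and without overlap between the groups in 20 of them, against 10.9% of all probe sets. Leaving out knockdown replicate 2 or 3 raised its adjusted p to 0.0704 and 0.0549.

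None of the 35 replication and mitosis genes changed at the threshold of 0.05 on the adjusted p. The share of all rows called was 0.00421%, which is 1 row (limma, Benjamini-Hochberg over 23770 rows). The lowest adjusted p of a member was 0.929. At an unadjusted p under 0.05 stood 0 of the 35, where 5.28% of all rows did (3.53% lower and 1.75% higher), and the lowest unadjusted p was 0.154. In no member did the 3 knockdown arrays lie wholly on 1 side of the 3 control arrays, an arrangement seen in 10.6% of all rows.

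Each interval gives the range of differences that 1 gene's arrays allow, on the deposited scale and with arrays taken as independent. The 35 are separate intervals, not joint bounds, and some samples share an animal, so larger changes are not excluded. Every one of the 35 intervals (95%, limma) lay within 2-fold in either direction, that is, between -1 and 1 on the log2 scale. The lowest lower bound was -0.82, for Bub1, and the highest upper bound was 0.73, for Mcm2. For 26 of the 35 the interval also lay within 1.5-fold in either direction. The median interval reached 0.35 to each side.

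**Figure D1:**
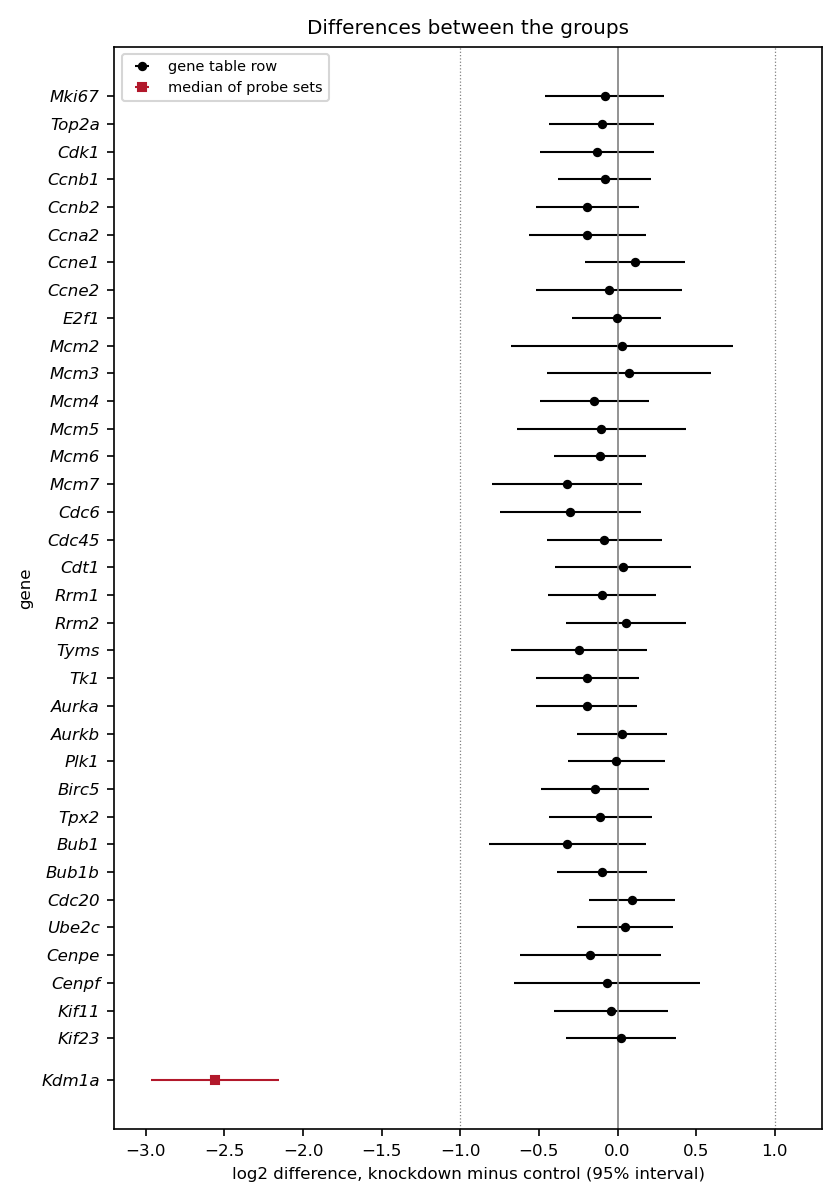
Log2 difference, knockdown minus control, of the 35 members in the gene table (black points, limma 95% intervals, n = 3 arrays a group), with Kdm1a as the median of its 23 probe sets (red square) at the bottom. Dotted lines mark 2-fold. Every member's interval crosses 0 and stays between -0.82 and 0.73, while Kdm1a lies at -2.56.

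Most members had slightly lower means in the knockdown, as most rows of like level did. The mean was lower for 26 of 35 members (74.3%) and for 54% of all rows, but after quantile normalization, which equalises the arrays' distributions, it was lower for 13 members, and after centring each array on its median for 30. The median log2 difference was -0.098 over the members and -0.019 over all rows. Of the members, 33 lay in the highest 25% of rows by mean value. Among all rows of that level 77.5% of rows were lower, with a median of -0.124, and among the 33 members there 75.8% were lower, with a median of -0.101. The members' share and median were thus near those of the rows around them. The median absolute difference was 0.101 over the members and 0.134 over all rows, and the median spread within a group was 0.163 (SD) for the members.

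Promoters are shown for 6 members, the 3 helicase genes and the 3 mitosis genes whose values differed most between replicate 1 and the other replicates, as described further on. Each sequence is the 250 bases before the annotated start, from RefSeq on GRCm38.p6, written 5′ to 3′ in the direction of the gene. Capitals mark matches, on either strand, to 3 motifs of cell cycle promoters. These were an E2F core (TTCCCGC or TTGGCGC), the cell cycle homology region known as CHR (TTTGAA) and the CCAAT box (CCAAT, written ATTGG on the other strand). Mcm2 is at chr6:88898781-88899030 on the minus strand, Mcm3 at chr1:20820313-20820562 on the minus strand and Mcm5 at chr8:75109259-75109508 on the plus strand. Cenpf is at chr1:189688087-189688336 on the minus strand, Bub1 at chr2:127831860-127832109 on the minus strand and Cenpe at chr3:135212313-135212562 on the plus strand.
Mcm2: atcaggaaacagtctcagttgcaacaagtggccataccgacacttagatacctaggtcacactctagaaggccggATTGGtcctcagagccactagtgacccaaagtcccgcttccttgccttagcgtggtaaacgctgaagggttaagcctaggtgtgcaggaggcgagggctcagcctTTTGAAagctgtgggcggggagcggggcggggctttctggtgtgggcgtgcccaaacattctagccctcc
Mcm3: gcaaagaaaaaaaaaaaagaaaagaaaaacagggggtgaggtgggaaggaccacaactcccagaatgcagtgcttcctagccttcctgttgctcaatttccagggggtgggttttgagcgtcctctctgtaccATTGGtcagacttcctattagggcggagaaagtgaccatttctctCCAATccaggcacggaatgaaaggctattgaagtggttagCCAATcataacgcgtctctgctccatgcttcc
Mcm5: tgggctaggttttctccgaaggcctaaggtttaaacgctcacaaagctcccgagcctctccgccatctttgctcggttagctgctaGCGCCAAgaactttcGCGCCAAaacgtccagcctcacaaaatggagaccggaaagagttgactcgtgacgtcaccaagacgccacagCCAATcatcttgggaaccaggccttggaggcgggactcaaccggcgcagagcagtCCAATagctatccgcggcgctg
Cenpf: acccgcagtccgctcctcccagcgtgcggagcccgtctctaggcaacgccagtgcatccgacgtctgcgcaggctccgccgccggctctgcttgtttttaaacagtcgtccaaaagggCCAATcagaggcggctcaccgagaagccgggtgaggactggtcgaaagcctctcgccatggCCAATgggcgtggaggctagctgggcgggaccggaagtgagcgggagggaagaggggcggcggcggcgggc
Bub1: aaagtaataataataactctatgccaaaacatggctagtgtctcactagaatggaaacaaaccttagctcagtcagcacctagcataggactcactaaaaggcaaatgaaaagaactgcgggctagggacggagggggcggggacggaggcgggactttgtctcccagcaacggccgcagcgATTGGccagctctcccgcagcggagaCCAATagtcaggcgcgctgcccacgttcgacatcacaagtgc
Cenpe: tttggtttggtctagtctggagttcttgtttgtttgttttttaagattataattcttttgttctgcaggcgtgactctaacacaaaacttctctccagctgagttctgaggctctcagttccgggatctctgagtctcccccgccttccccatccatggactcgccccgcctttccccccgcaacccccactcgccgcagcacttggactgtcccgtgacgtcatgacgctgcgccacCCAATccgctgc
All 6 windows held a CCAAT box, Mcm5 alone held an E2F core, at 2 places, and Mcm2 alone held the CHR letters.

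Promoters of 31 of the 36 genes were in the table, taking the first entry where a gene had more. CCAAT stood in 24 of 31 (77.4%), against 33.9% of all 32851 promoters of the same length. The mitosis group of 19 genes takes in Mki67, Top2a, Cdk1 and cyclins A2, B1 and B2, and 16 of them had a promoter in the table. CCAAT stood in 15 of these 16 (93.8%) and in 9 of the other 15 (60%). The E2F core stood in 8 of 31 (25.8%), against 5.62% of all promoters, with 3 of 16 in the mitosis group and 5 of 15 in the rest. CHR letters stood in 9 of 31 (29%), against 16% of all promoters, with 7 of 16 and 2 of 15 in the same order. These matches are letters in a window and not measured binding.

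Mki67 and Top2a, the most used proliferation markers, were near their control levels. Top2a (ENSMUSG00000020914) encodes the topoisomerase that untangles replicated chromosomes. Its log2 value was 10.68, 10.29 and 10.58 in knockdown samples, against 10.65, 10.56 and 10.64 in control samples. Knockdown replicate 2 lay below the controls, replicate 3 among them and replicate 1 just above. The difference was -0.10 (SE 0.14, adjusted p = 0.952 in limma, n = 3 each). Mki67 (ENSMUSG00000031004), which encodes the Ki-67 antigen of cycling cells, measured 10.15, 9.70 and 9.90 in knockdown samples, against 10.18, 9.88 and 9.94 in control samples. In each group replicate 1 was the highest, and the difference of -0.081 (SE 0.16) was smaller than the SD of 0.22 in the knockdown and 0.16 in the control group.

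Cyclins, Cdk1 and E2f1 made up 7 members, of which 6 had lower means, with differences from -0.19 to 0.11. Ccnb2 (ENSMUSG00000032218), a mitotic cyclin that activates CDK1, had the smallest p of this group. It measured 9.26, 8.92 and 9.08 in knockdown samples, against 9.36, 9.28 and 9.19 in control samples. Only knockdown replicate 1 lay within the control range, and the difference was -0.19 (SE 0.14, limma adjusted p = 0.932). Ccnb1 (ENSMUSG00000041431), its close relative, had 10.22, 10.16 and 10.00 in knockdown samples and 10.15, 10.16 and 10.31 in control samples, a difference of -0.083. Cdk1, the kinase of mitotic entry, differed by -0.13, and Ccna2, a cyclin of S phase and early mitosis, by -0.19. The G1/S cyclins Ccne1 and Ccne2 differed by 0.11 and -0.054, and E2f1, an activating E2F factor, by -0.0045.

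Origin licensing and helicase genes numbered 9, with 6 lower and 3 higher means. Mcm7 (ENSMUSG00000029730), a helicase subunit, had the lowest difference of all 35 members. Its log2 value was 7.31, 7.46 and 7.77 in knockdown samples, against 7.49, 7.90 and 8.12 in control samples. Both groups were widely spread and overlapped, and the difference of -0.32 (SE 0.20) had an adjusted p of 0.929 in limma. Its unadjusted p was 0.0344 without control replicate 1 and 0.154 with all arrays. By number, knockdown minus control was -0.18, -0.44 and -0.35 for Mcm7, and 0.036, 0.030 and 0.15 for Mcm3, for replicates 1, 2 and 3. Mcm6 (ENSMUSG00000026355), another subunit, measured 9.60, 9.56 and 9.77 in knockdown samples, against 9.68, 9.78 and 9.80 in control samples, a difference of -0.11. Mcm2 and Mcm3 differed by 0.027 (SE 0.30) and 0.071 (SE 0.22), and Mcm4 and Mcm5 by -0.15 (SE 0.15) and -0.10 (SE 0.23). Subunits of 1 ring had differences on both sides of 0, but those above 0 were smaller than their SE.

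Of the loading factors, Cdc6 had a difference of -0.30 (SE 0.19, limma adjusted p = 0.929). The median of its 7 probe sets, taken on each array, gave a difference of 0.16, while 4 of the 7 were lower. The direction of Cdc6 is thus not settled here. Cdt1, its partner in loading, differed by 0.033. Cdc45, which joins the helicase when origins fire, differed by -0.086.

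Nucleotide supply was covered by 4 genes. Tk1 (ENSMUSG00000025574), thymidine kinase, measured 6.99, 7.10 and 7.19 in knockdown samples, against 7.09, 7.42 and 7.34 in control samples. Knockdown replicate 1 lay below the controls and the other two within their range, and the difference was -0.19 (SE 0.14, limma adjusted p = 0.932). The median of its 5 probe sets, taken on each array, gave a difference of 0.042, while 3 of the 5 were lower. Rrm1 (ENSMUSG00000030978), the large subunit of ribonucleotide reductase, had 9.86, 9.75 and 10.17 in knockdown samples and 9.98, 10.06 and 10.03 in control samples. Its knockdown arrays spread to both sides of the controls, with a difference of -0.10. Rrm2, the small subunit, differed by 0.051, and Tyms, thymidylate synthase, by -0.25 (SE 0.18).

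Mitotic kinases and their partners gave 4 lower means of 5. Aurka (ENSMUSG00000027496), the kinase of the spindle poles, measured 9.44, 9.19 and 9.52 in knockdown samples, against 9.62, 9.51 and 9.62 in control samples. Knockdown replicates 1 and 2 lay below the controls and replicate 3 just inside their range, with a difference of -0.20 (SE 0.14, limma adjusted p = 0.932). Birc5 (ENSMUSG00000017716), which encodes survivin of the chromosomal passenger complex, had 9.69, 9.46 and 9.31 in knockdown samples and 9.77, 9.56 and 9.56 in control samples, a difference of -0.15. Aurkb, the kinase of that complex, differed by 0.030, Plk1 by -0.0074, and Tpx2, an activator of Aurora A on the spindle, by -0.11.

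Spindle checkpoint genes and their target were split, 2 lower and 2 higher. Bub1 (ENSMUSG00000027379), a checkpoint kinase at the kinetochore, measured 9.38, 8.57 and 8.93 in knockdown samples, against 9.42, 9.18 and 9.23 in control samples. Knockdown replicate 1 lay among the controls and replicates 2 and 3 below them, and the difference was -0.32 (SE 0.21, limma adjusted p = 0.932). Leaving out that replicate 1 made the difference -0.53 with an unadjusted p of 0.022 and an adjusted p of 0.791. Bub1b, which encodes BUBR1, differed by -0.098. Cdc20 and Ube2c, the activator and the ubiquitin-conjugating enzyme of the anaphase-promoting complex, differed by 0.091 and 0.045.

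Kinesins and kinetochore genes numbered 4, of which 3 had lower means. Cenpe (ENSMUSG00000045328), a kinesin at the kinetochore, measured 9.13, 8.49 and 8.79 in knockdown samples, against 9.15, 8.82 and 8.95 in control samples, a difference of -0.17 (SE 0.19, limma adjusted p = 0.941). Kif11 (ENSMUSG00000012443), the motor that pushes spindle poles apart, had 9.68, 9.28 and 9.57 in knockdown samples and 9.64, 9.40 and 9.62 in control samples, a difference of -0.042. In both genes replicate 1 was the highest array of its group. Cenpf, a kinetochore protein, and Kif23, a motor of cytokinesis, differed by -0.066 and 0.024.

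**Figure D2:**
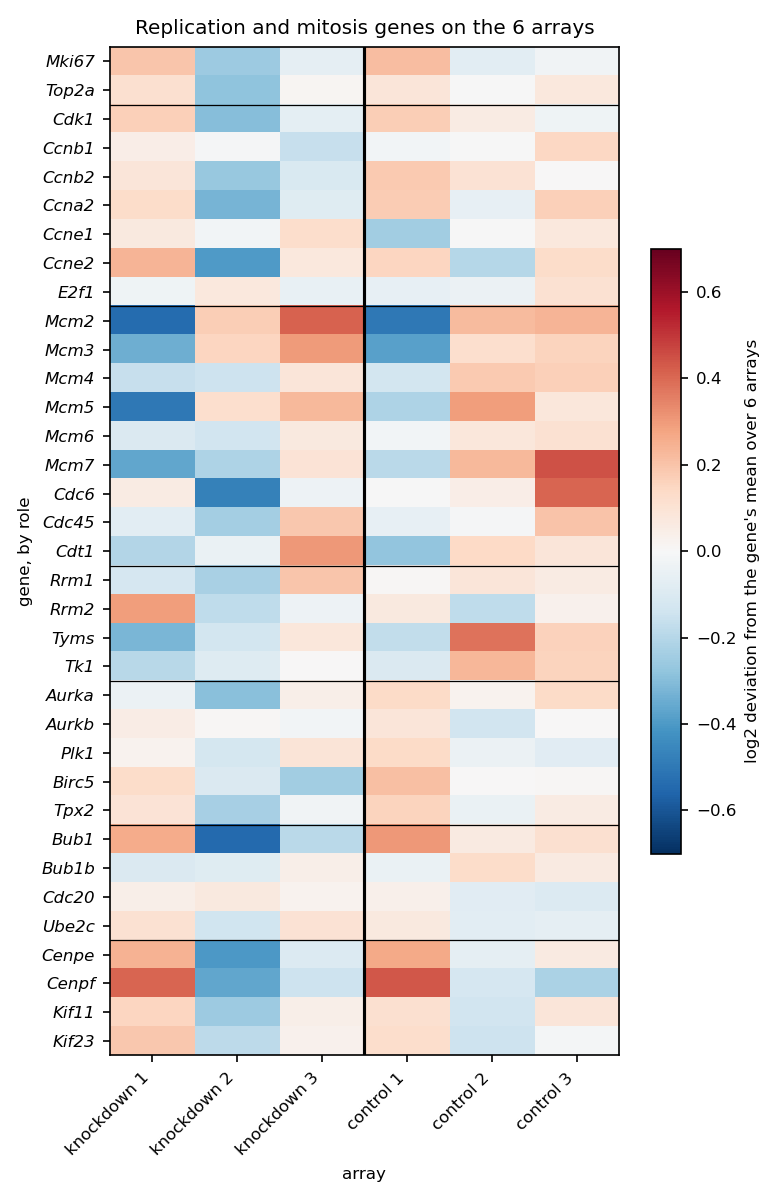
Log2 deviation of each of the 35 members (rows, by role) from its own mean over the 6 arrays (columns, knockdown left of control), red above and blue below the mean. Mcm2, Mcm3 and Mcm5 are low and Cenpf, Cenpe and Bub1 high on replicate 1 of both groups, and knockdown replicate 2 is the lowest array for 20 genes on this scale, as deposited (7 after quantile normalization).

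The arrays of these genes also differed by replicate number. On replicate 1 of both groups most helicase members were low and most mitosis members high. In the longer list of other mitosis genes below, some genes were high on replicate 1 of both groups, but the list's mean was not the highest there. Mcm2 (ENSMUSG00000002870) measured 7.58, 8.29 and 8.53 in knockdown samples, against 7.62, 8.34 and 8.36 in control samples, so replicate 1 was the lowest of each group. Averaged over both groups, replicate 1 was 0.78 lower than the other numbers for Mcm2 (a log2 difference of -0.78), and the same difference was -0.54 for Mcm3 and for Mcm5. Cenpf (ENSMUSG00000026605) went the other way, with 9.03, 8.26 and 8.48 in knockdown samples and 9.06, 8.51 and 8.40 in control samples, 0.63 higher on replicate 1. For Bub1 and Cenpe that difference was 0.42 and 0.38. These genes were picked after their values were seen, and the contrast between numbers is a description with no test.

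Over wider groups of members the split was less sharp on the replication side. Replicate 1 was the lowest array of both groups in 5 of the 6 helicase genes, the exception being Mcm6, and in 26.1% of all rows. Over all 9 origin licensing and helicase genes this held for 6. Over the 16 members outside the mitosis group it held for 8, while 2 were highest on replicate 1 of both groups. Replicate 1 was the highest of both groups in 14 of the 19 genes of the mitosis group and in 12.8% of all rows. The mean deviation of Mcm2 to Mcm7 was -0.34, -0.010 and 0.20 on the knockdown arrays, against -0.24, 0.19 and 0.20 on the control arrays. For the 4 kinesin and kinetochore genes it was 0.25, -0.30 and -0.043 on the knockdown arrays, against 0.23, -0.11 and -0.023 on the control arrays. After quantile normalization the helicase mean was -0.18 on replicate 1 of either group and between 0.030 and 0.13 on the other arrays. The kinesin and kinetochore mean was then 0.39 on knockdown replicate 1 and 0.29 on control replicate 1, and below 0 on the other arrays.

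**Figure D3:**
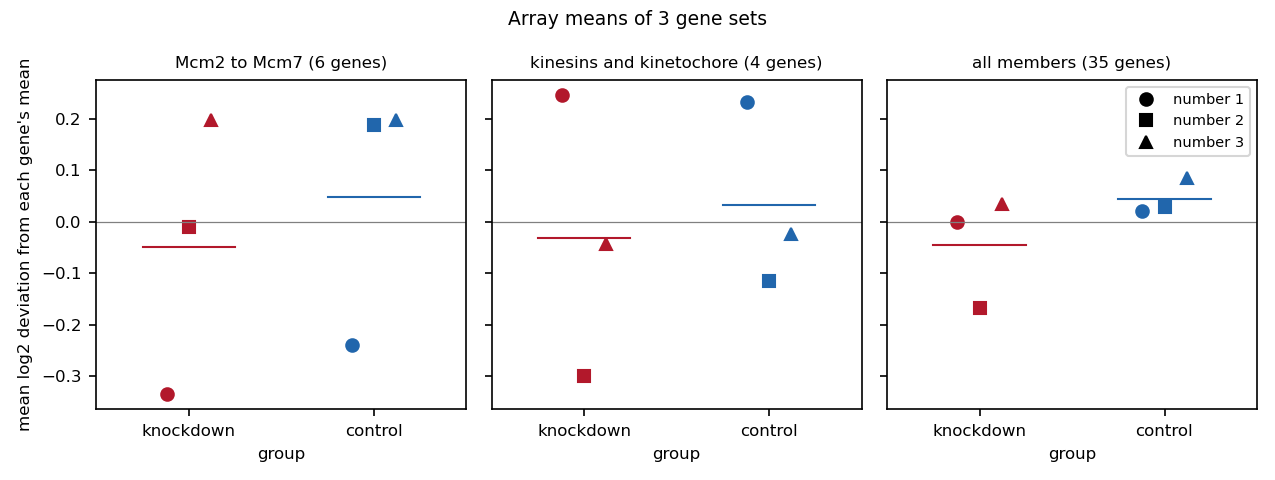
Mean log2 deviation from each gene's own mean for 3 gene sets, by array, with knockdown in red left of control in blue. Symbols give the replicate number and lines the group mean. Replicate 1 of both groups is lowest for the helicase genes and highest for the kinesin and kinetochore genes, and knockdown replicate 2 is lowest over all 35 members on this deposited scale, at -0.17, but not after quantile normalization, at -0.038.

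Markers of the leukaemia cells also differed by number, in both directions. Of 8 such markers, replicate 1 was the lowest array of both groups for 4 (Kit, Meis1, Mpo and Csf3r), the highest of both for 2 (Itgam and Ptprc) and neither for 2. Kit, a receptor of haematopoietic progenitors, had a median probe set value of 5.14, 7.22 and 7.86 in knockdown samples, against 5.36, 7.57 and 7.44 in control samples. Its log2 difference between replicate 1 and the other numbers was -2.28. Itgam, the myeloid integrin CD11b, went the other way by 0.74, with 7.81, 7.14 and 7.32 in knockdown samples, against 8.45, 7.71 and 7.37 in control samples. For Mpo, a granule enzyme of myeloid progenitors, that difference was -0.98, and for Ptprc, the pan-leukocyte antigen CD45, it was 0.24. Between the groups 4 markers were lower and 4 higher, with 0 called or at an unadjusted p under 0.05 (limma). The mean log2 value over all 8 ran from 7.65 to 8.19 in knockdown and from 7.66 to 8.14 in control samples. The part of these markers in the split of the cell cycle genes was not tested.

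Knockdown replicate 2 had low values for many members on the deposited scale, but not after quantile normalization. As deposited it was the lowest of the 6 arrays in 20 of 35 members and in 19.8% of all rows, and after quantile normalization in 7 members and 18.5% of rows. Centring each array on its median made this 22 members and 26.9% of rows. Over all members the mean deviation was -0.00070, -0.17 and 0.034 on the knockdown arrays, against 0.021, 0.028 and 0.086 on the control arrays. After quantile normalization it was 0.14, -0.038 and -0.037 on the knockdown arrays, against 0.076, -0.068 and -0.070 on the control arrays. By number, as deposited, knockdown minus control was -0.021, -0.20 and -0.051, for replicates 1, 2 and 3. Without knockdown replicate 2 the median difference over the members was -0.017, and 20 of 35 members were lower.

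Single probe sets were examined along each transcript. For 33 of the 36 genes the platform annotation gave 533 probe sets, from 4 to 45 a gene, and Ccnb1, Rrm2 and Pcna had none under their own symbol. Of the 533, 0 passed the adjusted threshold, as did 0% of all 267824 probe sets, Kdm1a's included. At an unadjusted p under 0.05 stood 10 of the 533 (1.88%), all lower, against 5.3% of all probe sets. Groups did not overlap in 38 of the 533, against 10.9% of all. The median difference was -0.073 over these probe sets and -0.024 over all. Means were lower in 332 of the 533 (62.3%), against 52.7% of all probe sets. In Bub1 25 of 28 probe sets were lower, in Mcm7 6 of 6 and in Tyms 5 of 5. Genes at the other end were Ube2c with 1 of 4 lower, Ccne1 with 5 of 16, and Cdc20 and Cdt1 with 2 of 6 and 4 of 12. Probe sets of 1 gene share their samples and are not replicates.

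**Figure D4:**
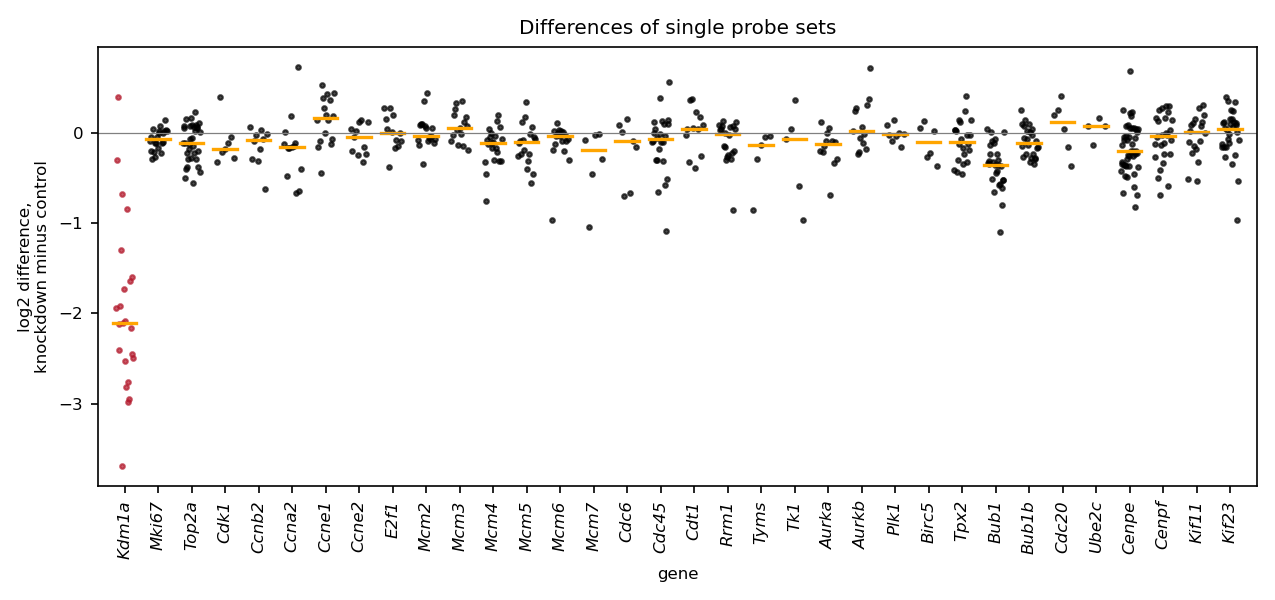
Log2 difference, knockdown minus control, of each probe set (points) of Kdm1a (red, 23 probe sets) and of 33 members (black, 533 probe sets). Orange bars are the medians of each gene's points, which can differ in sign from the difference of per-array medians given in the text. Kdm1a's points run from 0.40 to -3.69, and those of the members lie close to 0, with 3 of 533 at or below -1.

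Taking the median probe set per gene gave 0 called of 33 members, where 0.00529% of 18916 symbols were called, and 0 at an unadjusted p under 0.05, where 5.05% were. The median difference was -0.083, and 23 of the 33 were lower, against 55.7% of all symbols. Of the 33, 30 lay in the highest 25% of symbols by level, where 76.8% of symbols were lower with a median of -0.14. The sign differed from that of the gene row for 8 of the 33, namely E2f1, Mcm2, Mcm6, Cdc6, Cdt1, Tk1, Bub1b and Kif23. The median can be a different probe set on each array, so its sign need not follow the count of lower probe sets. Most single probe sets went with the gene row in Mcm6 (12 of 17 lower), Bub1b (16 of 24), Cdt1 (4 of 12) and Kif23 (13 of 30). In Mcm2 9 of 17 were lower, against its gene row, and in E2f1 6 of 12. By median probe set the groups did not overlap for Ccnb2, with a difference of -0.39 (unadjusted p = 0.0737, limma adjusted p = 0.959), nor for Cdc20, with 0.22 (unadjusted p = 0.232, limma adjusted p = 0.959). That is 2 of 33, against 10% of all symbols.

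Other genes of replication were read in the same way, as median probe sets by symbol. Of 45 listed, 43 were measured and 0 called, 38 were lower and 5 higher, and the median difference was -0.17, beside -0.14 in the highest 25% of symbols by level, where 35 of the 43 lay and 76.8% of symbols were lower. At an unadjusted p under 0.05 stood 1 of them, against 5.05% of all symbols. This was Prim2, a primase subunit, with 7.39, 7.20 and 7.81 in knockdown samples, against 7.80, 8.08 and 8.24 in control samples (difference -0.57, SE 0.22, limma adjusted p = 0.959). Next by p were Rfc4, a subunit of the clamp loader, at -0.50, and Chaf1a, a chromatin assembly factor, at -0.35. Groups did not overlap in 3 of the 43 (6.98%), against 10% of all symbols. Over the 43 the mean deviation was -0.25, -0.16 and 0.14 on the knockdown arrays, against -0.17, 0.18 and 0.26 on the control arrays. Replicate 1 was the lowest of each group.

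Other genes of mitosis had lower means about as often as symbols of like level. All 51 listed were measured and 0 called, 38 were lower and 13 higher, and the median difference was -0.15. Of the 51, 45 lay in the highest 25% of symbols, where 76.8% were lower with a median of -0.14. The list's mean deviation was 0.014, -0.29 and 0.032 on the knockdown arrays, against 0.071, 0.054 and 0.12 on the control arrays. By this mean replicate 1 was thus the highest of neither group. The mean over the mitosis group of members, from gene rows, was highest there in both, at 0.12 in knockdown and 0.15 in control. Single genes of the list went both ways. Replicate 1 minus the other numbers was 0.63 for Aspm and 0.51 for Ncapg, but -0.65 for Pttg1 and -0.36 for Bub3, picked after their values were seen. At an unadjusted p under 0.05 stood 2 of the 51, Cdca3 and Cdc25c, both lower, against 5.05% of all symbols and 5.54% of those in the highest 25%. In 12 of the 51 (23.5%) all knockdown arrays lay below all controls, and in 0 above them, while 12.4% of symbols in the highest 25% by level did not overlap in either direction. The 12 were Ndc80, Spc24, Spc25, Kif14, Kif22, Cdca3, Hmmr, Smc4, Cdc25c, Melk, Tacc3 and Ckap2l, named after their values were seen. This count is from the deposited scale and was not repeated after quantile normalization, under which fewer of the members had lower means. Cdca3, a trigger of mitotic entry, had 8.30, 8.38 and 8.32 in knockdown samples, against 8.95, 8.96 and 9.32 in control samples. This difference of -0.75 (SE 0.18) had an unadjusted p of 0.00292 and a limma adjusted p of 0.959. Cdc25c, a phosphatase that activates CDK1, differed by -0.45, and Spc25, of the kinetochore's NDC80 complex, by -0.50.

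Among regulators upstream of S phase, 24 of 26 were measured and 0 called, with 16 lower and 8 higher and a median of -0.041. Groups did not overlap in 2 of the 24 (8.33%), against 10% of all symbols. At an unadjusted p under 0.05, where 5.05% of all symbols stood, was 1 of the 24, Ccnd2. This gene encodes cyclin D2, which starts the passage through G1, and had the smallest p of these lists. Its log2 value was 8.29, 8.39 and 8.60 in knockdown samples, against 9.23, 9.69 and 9.61 in control samples. All knockdown arrays lay below all controls, and the difference was -1.08 (SE 0.20, 95% interval -1.53 to -0.63), with an unadjusted p of 0.000428. It did not pass over all symbols (limma adjusted p = 0.813). Cdkn2a, the locus of the p16INK4a and p19ARF tumour suppressors, lay higher without overlap, at 6.03, 5.97 and 5.89 in knockdown samples, against 5.83, 5.38 and 5.67 in control samples (difference 0.34, SE 0.19, limma adjusted p = 0.959). Lin9, a subunit of the DREAM and MuvB complexes that control many mitosis genes, differed by -0.62 (SE 0.31), with knockdown values spread from 5.65 to 7.01.

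Markers of other cell types gave 0 called genes and 0 at an unadjusted p under 0.05 (limma). Their lists had mean log2 values of 3.80 to 4.15 in knockdown and 3.74 to 4.08 in control samples for 6 T and NK cell genes. For 4 B cell genes these were 4.86 to 5.05 in knockdown and 4.68 to 4.98 in control samples, and for 3 erythroid genes 4.38 to 4.58 in knockdown and 4.41 to 4.73 in control samples. For 6 stromal and endothelial genes they were 5.27 to 5.61 in knockdown and 5.27 to 5.50 in control samples. The group ranges overlapped in every list. No detection call accompanies the values, so whether these markers are absent was not determined.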

How the data were processed

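RNA from 3 Kdm1a knockdown and 3 control samples was measured on 1 array each. Per the submitters' processing notes the authors used RMA (version not given), which corrects background, equalises arrays and summarises probes. Both deposited tables, by gene and by probe set, were read as log2 from their range of values. RMA and RNA amplification can compress differences, and the arrays give no depth, so their number limits the precision. The array medians ran from 5.125 to 5.259.

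Knockdown and control were compared with limma 3.58.1 in R 4.3.3 over all 23770 rows, two-sided, with Benjamini-Hochberg adjustment. Groups and replicate numbers came from the titles. Intervals and SE are limma's moderated ones, and ± or SD refer to 3 arrays. Of 267824 probe sets, 242247 carried 1 symbol, 2077 several and 23500 none in the platform annotation, and the symbols of 32332 probe sets were updated through RefSeq synonyms, giving 18916 symbols whose median probe set was tested likewise. Symbols of the 35 gene rows came with the choice of members. Members, roles and lists were chosen with earlier results of these data known. Values on all arrays are given for the member with the smallest p and that with the highest mean in each of 7 role groups, and the 3 smallest p of each replication, mitosis and G1 list are named. Leukaemia markers were named after their values were seen. The procedure was tested on simulated data with independent noise on each array, which cannot show the effect of a shared replicate number or animal.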

Additional observations from a re-analysis of the deposited data

How the results depend on the processing

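Of 17 alternatives, none called a member, with adjusted p of at least 0.523, and 558 member differences were computed under them, 61 with a turned sign. Quantile normalization turned the members' median difference to 0.031, left 13 members lower and called 0 rows. It turned Mki67 to 0.051, Ccnb1 to 0.024, Ccne2 to 0.087, Mcm5 to 0.038, Mcm6 to 0.023, Plk1 to 0.12, Bub1b to 0.031, Cdc45 to 0.060, Rrm1 to 0.036, E2f1 to 0.012, Cenpf to 0.081, Kif11 to 0.094 and Tpx2 to 0.022. Median centring turned Mcm2 to -0.0081, Aurkb to -0.0051, Cdt1 to -0.0017 and Kif23 to -0.011. Array weights turned Mcm2 to -0.088, Mcm3 to -0.012, Plk1 to 0.013, Cdt1 to -0.037 and Cenpf to 0.012, and put 1 member, Mcm7, lower at an unadjusted p under 0.05. Leaving out both arrays numbered 1 called 0 rows and turned Plk1 to 0.044 and Rrm2 to -0.035. The probe set medians turned Mcm2 to -0.0063, Mcm6 to 0.061, Bub1b to 0.012, Cdc6 to 0.16, Cdt1 to -0.15, Tk1 to 0.042, E2f1 to 0.0088 and Kif23 to -0.086. With each array left out in turn, 0 to 0 rows were called, 0 to 1 members stood lower and 0 to 0 higher at an unadjusted p under 0.05, and the median ran from -0.13 to -0.017. Signs turned in 15 members, with ranges of -0.20 to 0.025 for Mki67, -0.18 to 0.013 for Top2a, -0.19 to 0.13 for Ccne2, -0.042 to 0.047 for E2f1, -0.22 to 0.30 for Mcm2, -0.10 to 0.26 for Mcm3, -0.24 to 0.12 for Mcm5, -0.20 to 0.013 for Cdc45, -0.11 to 0.14 for Cdt1, -0.083 to 0.15 for Rrm2, -0.029 to 0.079 for Aurkb, -0.053 to 0.058 for Plk1, -0.29 to 0.13 for Cenpf, -0.13 to 0.074 for Kif11 and -0.066 to 0.12 for Kif23. The replicate block called 0 rows over all genes and left 1 member, Mcm7, lower at an unadjusted p under 0.05 (0.0393, limma adjusted p = 0.525). Shared numbers were not treated as pairs in the main fit, since the match was not the same for every number. Deviations from the group means correlated at 0.54, 0.081 and 0.25 for numbers 1, 2 and 3. Knockdown replicate 3 was closer to control replicate 2, at 0.28, than to its own number. Knockdown replicate 1 did go with its own number, at 0.54. Its values of -0.32 with control replicate 2 and -0.34 with control replicate 3 add nothing separate, since a group's deviations sum to 0 in each gene. The main fit has no term for number, so a shift shared by number 1 adds to its SE. Fits with fewer arrays or with a block also have fewer degrees of freedom, and what else moved the values was not tested. The remaining alternatives (the replicate number as a random effect, both filters on low rows, the trend with a robust prior and a threshold of 0.1) kept every sign and count.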
